A study of Mus musculus with 12 samples.

Results

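Complex I, NADH:ubiquinone oxidoreductase, is the largest enzyme of the mitochondrial respiratory chain, and its nuclear genes carry the prefix Nduf in the mouse. The genes described here were chosen by symbol, as Nduf followed by the letters of a subunit or assembly factor and a number, with pseudogenes left out and with at least 0.5 RPKM required in 6 or more of the 12 columns. RPKM is the number of reads of a gene, scaled by the length of the gene and by the reads of the library. The rule found 46 genes among 31722 symbols, and all 46 met the limit on low values, with 1.76 RPKM as the lowest value of any member in any heart. They fall into 7 core subunits, 29 accessory subunits, 8 assembly factors (Ndufaf1 to Ndufaf8) and the pair Ndufa4 and Ndufa4l2, which is set apart because Ndufa4 is now counted as a subunit of complex IV. The accessory subunit Ndufb1 has no row of that symbol and was not analysed here.

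The hearts came from C57BL/6J mice, 6 in the CCl4 group and 6 in the Control group. CCl4 is carbon tetrachloride, written CCL4 in the labels, a solvent that damages the liver and was used here to produce cirrhosis, and the comparison asks what that does to the heart. Control mice are labelled only as control. The labels give no age, sex, dose, route, duration or vehicle, and no shared allele or other treatment. Each of the 12 samples is 1 heart, and its tissue is labelled heart with no chamber named.

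In the heart, which draws nearly all of its energy from mitochondria, complex I takes electrons from NADH, passes them to ubiquinone and pumps protons across the inner membrane. The enzyme is built from modules. The N module binds and oxidises NADH, the Q module reduces ubiquinone, and the membrane arm, with a proximal and a distal part, moves protons. The core subunits that carry the flavin and the iron-sulfur clusters are nuclear genes, whereas the core subunits of the membrane arm are encoded by mitochondrial DNA (the mt-Nd genes). Accessory subunits surround this core, and assembly factors join the modules without staying in the finished enzyme.

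Depth, recovered from the steps in which RPKM values move, was 39535325 to 63161478 reads in CCl4 hearts and 26263879 to 57581111 reads in Control hearts. A member rested on 98 (Ndufaf3) to 48285 (Ndufa12) such steps in a library. CCl4 replicate 3 stood apart from the other hearts. It had the lowest value of all 12 hearts in 40 of the 46 genes, although it was the lowest in only 9.15% of all 14087 genes tested and the highest in 41.4% of them. Its summed RPKM over 10 cardiomyocyte markers was 19709, against 27663 to 29963 in the other CCl4 hearts and 28135 to 35239 in Control hearts. Its summed RPKM over 8 fibroblast markers was 942, against 104 to 499 in the other CCl4 hearts and 96.2 to 264 in Control hearts. All 10 cardiomyocyte markers were detected in every heart, and the main results below are given with and without this library. In RNA from whole tissue, fewer cells of a type cannot be told apart from less RNA per cell.

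All 46 members had a lower mean log2 level in CCl4 than in Control hearts, and none of the differences passed the test over all genes. Across 14087 genes tested with limma, 0 genes (0%) had an adjusted p under 0.05, whereas 1435 had an unadjusted p under 0.05. By an exact rank-sum test the count past the adjusted p was 0 as well, and 1270 genes had a raw p under 0.05. With limma's array weights, which give hearts unequal weight, 2249 of all genes and 16 of the 46 members passed the adjusted p. A log2 fold change below 0 was found for 65.7% of all genes tested. The direction of all 46 held for the values as deposited, while 43 members lay below 0 under median-of-ratios scaling, 42 under quantile normalization and 42 under a scaling that omitted mitochondrial RNA. The members that then lay above 0 were Ndufa6, Ndufaf2 and Ndufa4l2, joined by Ndufa12 under quantile normalization and the scaling that omitted mitochondrial RNA.

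The shift was of similar size in each class for the values as deposited. The median log2 fold change, which is the mean log2(RPKM + 1) of CCl4 hearts minus that of Control hearts, was -0.195 for the 7 core subunits, -0.192 for the 29 accessory subunits and -0.192 for the 8 assembly factors, against -0.0483 for all genes tested. Under a scaling that omitted mitochondrial RNA these medians were -0.102 for core, -0.103 for accessory and -0.11 for assembly genes, against 0.0151 for all genes. With median-of-ratios scaling they were -0.129, -0.127 and -0.131 in the same order, against -0.00516, and with quantile normalization -0.122, -0.114 and -0.133, against -0.00626. The assembly factors had the smallest shift with array weights, at -0.229, -0.211 and -0.168, against -0.0248. The same held with a score of atrial markers as a covariate, at -0.229, -0.235 and -0.185, against -0.0337. In RPKM, the median member of these classes was in CCl4 hearts at 87.1%, 87.2% and 86.2% of its Control mean, against 95.9% for the median of all genes. At an unadjusted p under 0.05 there were 9 members, all lower in CCl4 hearts (19.6% of the 46), or 8 of the 44 without the Ndufa4 pair (18.2%). The same limit was met on the lower side by 8.58% of all genes tested and on the higher side by 1.6%. These 9 were the accessory subunits Ndufb4, Ndufa13, Ndufa1, Ndufs6 and Ndufs4, the assembly factors Ndufaf4, Ndufaf8 and Ndufaf6, and Ndufa4. In none of the 46 genes did every CCl4 heart lie below every Control heart, a pattern found in 0.724% of all genes tested. In 24 members all 6 CCl4 hearts lay below the Control median, in 14 members 5 did, in 6 members 4 did, and in Ndufa10 and Ndufa6 only 3 and 2 did. How many of all genes tested have such counts was not examined, so these counts, also where given by gene below, are description only. A log2 fold change below 0 was found for 65.7% of all genes tested.

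Without CCl4 replicate 3 the differences were smaller. The median log2 fold change of the 46 genes was then -0.124, against -0.0838 for all genes tested, so that the distance between these medians was -0.0404, where it was -0.145 with all 12 hearts. Of the members, 43 were lower and 3 (Ndufa6, Ndufa10 and Ndufa12) were higher, 5 were at an unadjusted p under 0.05, and 0 passed the adjusted p. Of all 14087 genes tested, 76% were then lower, and 2158 were at an unadjusted p under 0.05, 2004 of them lower. The class medians were -0.106 for core, -0.12 for accessory and -0.125 for assembly genes. CCl4 replicate 3 was also the library with the lowest cardiomyocyte sum and the highest fibroblast sum, and the part of those markers in the difference was not tested.

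**Figure D1:**
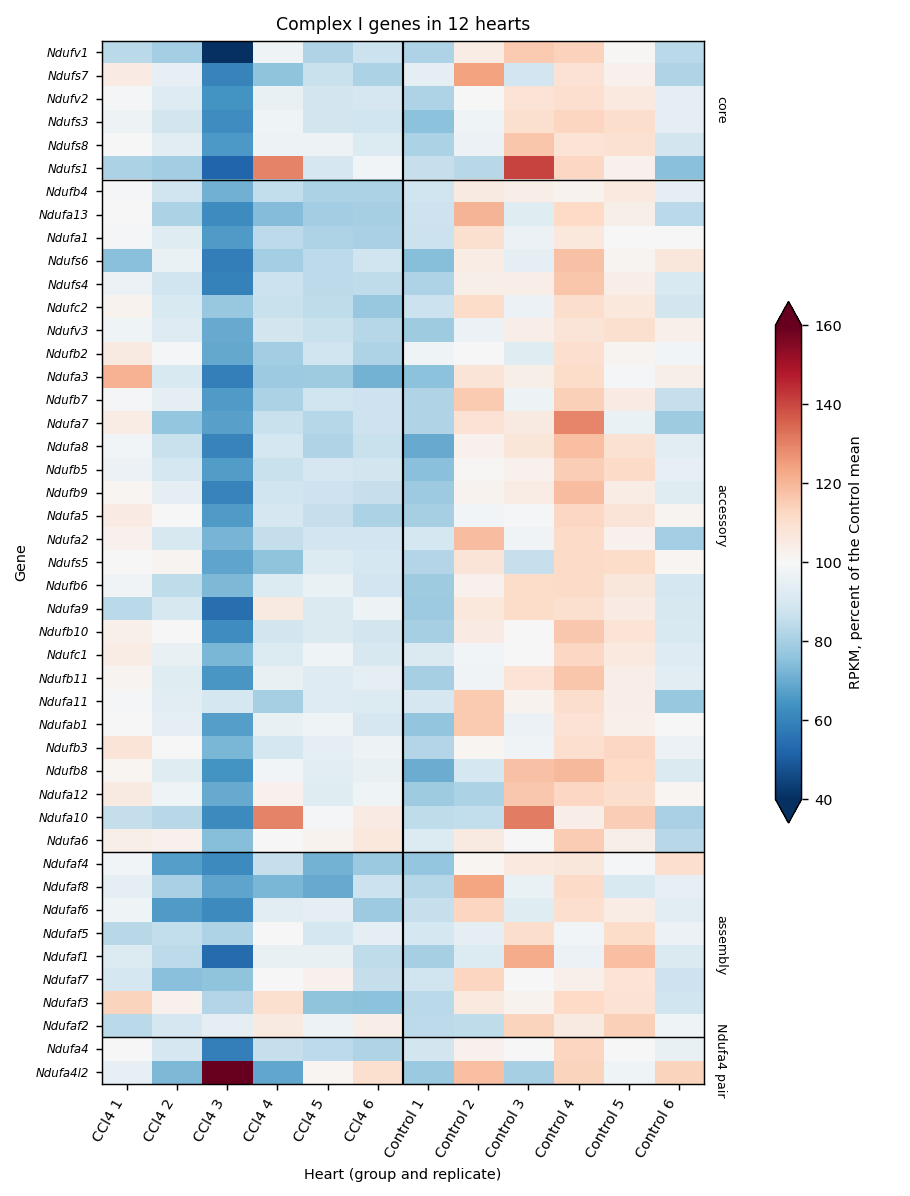
RPKM of 45 of the 46 genes (rows, by class and, within a class, by p) in 12 hearts (columns, CCl4 left, Control right), as a percentage of the Control mean of the gene. The column of CCl4 replicate 3 is the deepest blue, with a median of 65.9%, and Control replicate 1 is the bluest of the Control columns at 81.7%.

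The hearts can be read one by one as a percentage of the Control mean, taking the median over the 46 genes. CCl4 replicate 3 was at 65.9%, and the other CCl4 hearts were at 99.3% (replicate 1), 90.7% (replicate 2), 89.6% (replicate 4), 88.8% (replicate 5) and 88% (replicate 6). The Control hearts were at 81.7% (replicate 1), 104% (replicate 2), 103% (replicate 3), 111% (replicate 4), 105% (replicate 5) and 92.8% (replicate 6). The groups therefore overlapped, since Control replicate 1 lay below all CCl4 hearts except replicate 3, and CCl4 replicate 1 lay close to the Control mean. Taken over all genes tested, the median was 83%, 76.2%, 114%, 96.1%, 97.2% and 104% in CCl4 replicates 1 to 6. In Control replicates 1 to 6 it was 102%, 98.9%, 103%, 101%, 99.4% and 92.8%. In CCl4 replicates 1 and 2 the median of the members thus lay above that of all genes. Control replicate 1 was the lowest Control heart in 36 of the 46 genes, and Control replicate 4 was the highest of all 12 hearts in 19. The matching shares of all genes tested were not examined. Markers of atrial tissue summed to 15055 RPKM in Control replicate 1 and to 706 RPKM in Control replicate 4, and their part in the spread between Control hearts was not tested. CCl4 replicate 1, the treated heart nearest to the Control mean in the median of the members, had the lowest fibroblast sum of its group at 104 RPKM.

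In CCl4 replicate 3 the core subunits were at a median of 60% of their Control mean, the accessory subunits at 66.2% and the assembly factors at 72.1%. In this heart the members ran from 37.7% for Ndufv1 to 164% for Ndufa4l2. By module, it was at 61.6% for the N module, 65.7% for the Q module, 64.2% for the proximal and 66.2% for the distal membrane arm, so that each module was below its Control mean in that heart. Over the groups the medians of the log2 fold change were also close, at -0.198 for the N module (8 genes), -0.195 for the Q module (7 genes), -0.208 for the proximal arm (10 genes) and -0.172 for the distal arm (11 genes). With CCl4 replicate 3 left out they were -0.138 for the N module, -0.112 for the Q module, -0.138 for the proximal arm and -0.112 for the distal arm.

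**Figure D2:**
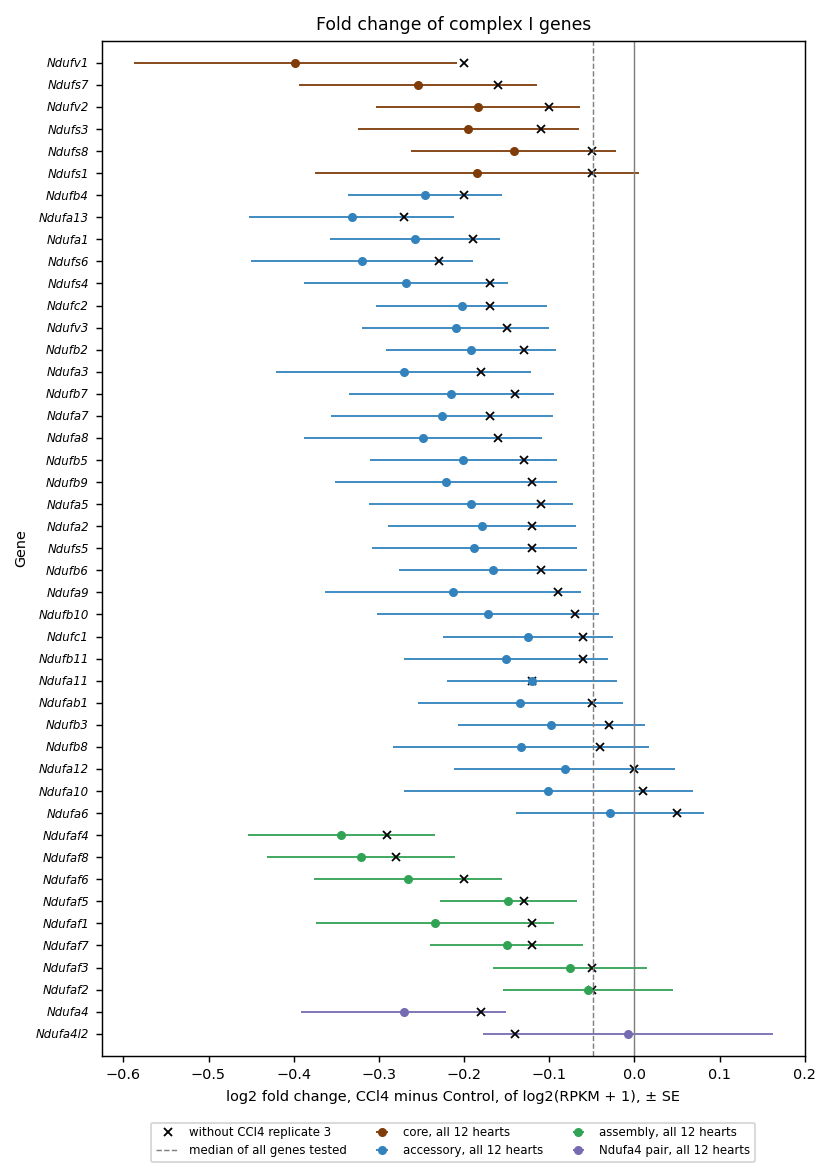
Log2 fold change of 45 of the genes, CCl4 minus Control of log2(RPKM + 1), with its standard error (coloured points and bars, by class) and its value without CCl4 replicate 3 (crosses). All coloured points lie below 0, as deposited, and 3 crosses lie above it or at its line (Ndufa6, Ndufa10 and Ndufa12). With other scalings of the libraries 42 or 43 of all 46 genes lay below 0.

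Among the core subunits the size of the difference was greatest for Ndufv1, which holds the flavin and the NADH binding site at the tip of the N module (chromosome 19, 4007384 to 4012806, GRCm38). Ndufv1 had 31.5, 69.2 and 81.3 RPKM as the lowest, median and highest value of CCl4 hearts, against 67.8, 85.6 and 96.6 RPKM in Control hearts. Its mean was 65.1 ± 17.2 RPKM in CCl4 hearts and 83.4 ± 12.1 RPKM in Control hearts (SD, n = 6 each), a log2 fold change of -0.40 (SE 0.19, adjusted p = 0.507). All 6 CCl4 hearts lay below the Control median, and the value without CCl4 replicate 3 was -0.20. Ndufv2, the iron-sulfur partner of Ndufv1 (chromosome 17, 66078638 to 66101559), had 131, 185 and 202 RPKM in CCl4 hearts and 166, 209 and 224 RPKM in Control hearts, with a log2 fold change of -0.18 (SE 0.12, adjusted p = 0.617). Without CCl4 replicate 3 it was -0.10. The groups overlapped in both genes, and their lowest value was CCl4 replicate 3.

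Ndufs7, a core subunit at the ubiquinone pocket of the Q module (chromosome 10, 80249121 to 80256794), carries the last iron-sulfur cluster of the electron path. It had 33.4, 46.7 and 58.5 RPKM in CCl4 hearts and 45.5, 54.8 and 69.1 RPKM in Control hearts. Its log2 fold change was -0.25 (SE 0.14, adjusted p = 0.546), and -0.16 without CCl4 replicate 3. In 5 CCl4 hearts it lay below the Control median, and the groups overlapped. Ndufs3 was at 43.7 ± 6.32 RPKM in CCl4 and 50.1 ± 7.16 RPKM in Control hearts, and Ndufs8 at 64.7 ± 8.95 RPKM in CCl4 and 71.3 ± 9.6 RPKM in Control hearts (SD, n = 6 each). Both are Q module core subunits in which all 6 CCl4 hearts lay below the Control median.

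Ndufs1, the largest iron-sulfur protein of the N module (chromosome 1, 63143596 to 63176833), had 12.8, 20.8 and 31.6 RPKM in CCl4 hearts and 18.2, 23 and 34.2 RPKM in Control hearts, and 4 CCl4 hearts lay below the Control median. Its high values were CCl4 replicate 4 at 31.6 RPKM and Control replicate 3 at 34.2 RPKM, which are also the most deeply sequenced library of each group. The accessory subunit Ndufa10 had its highest values in the same hearts, at 145 RPKM in CCl4 replicate 4 and 146 RPKM in Control replicate 3. The complex II subunit Sdha did so too, at 129 and 143 RPKM in those hearts, as did Ndufv1, at 81.3 and 96.6 RPKM. Whether depth has a part in this was not tested. The log2 fold change of Ndufs1 was -0.18 (SE 0.19, adjusted p = 0.785), and without CCl4 replicate 3 it was -0.05.

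Among the 29 accessory subunits the smallest p belonged to Ndufb4, a protein of the distal membrane arm (chromosome 16, 37647170 to 37654453). Ndufb4 had 63.1, 73.6 and 87.8 RPKM as the lowest, median and highest value of CCl4 hearts, against 77.9, 91.2 and 93.4 RPKM in Control hearts. The mean was 74.6 ± 8.16 RPKM in CCl4 hearts and 88.4 ± 6.35 RPKM in Control hearts (SD, n = 6 each), with a log2 fold change of -0.25 (SE 0.09, adjusted p = 0.368). An exact permutation test of this gene alone, over 924 splits of the hearts and two-sided, gave p = 0.0108, where the smallest possible value is 0.00216. This p is unadjusted and not independent evidence, since the gene was picked by its limma p on the same values. All 6 CCl4 hearts lay below the Control median, and the groups overlapped because CCl4 replicate 1, at 87.8 RPKM, lay above Control replicates 1 and 6, at 77.9 and 83.5 RPKM. Without CCl4 replicate 3 the log2 fold change was -0.20.

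Ndufa13, a subunit of the proximal membrane arm also known as GRIM-19 (chromosome 8, 69894180 to 69902558), was of higher level. It had 206, 262 and 329 RPKM in CCl4 hearts and 277, 324 and 397 RPKM in Control hearts, with a log2 fold change of -0.33 (SE 0.12, adjusted p = 0.368). In 5 CCl4 hearts it lay below the Control median, and only CCl4 replicate 1 was above it. Its exons overlap those of Tssk6 on the other strand by 375 bases. Ndufa1, a small membrane protein of the same arm that is encoded on the X chromosome (37187588 to 37191163), had 119, 149 and 179 RPKM in CCl4 hearts and 157, 181 and 198 RPKM in Control hearts. Its log2 fold change was -0.26 (SE 0.10, adjusted p = 0.404), with all 6 CCl4 hearts below the Control median. Xist, the RNA of the inactive X, was under 1 RPKM in 4 hearts, replicates 2 and 5 of each group, so the groups held equal numbers of such hearts.

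Ndufs6 and Ndufs4 are small proteins that fasten the N module to the rest of the enzyme, and loss of Ndufs4 in mice is a model of Leigh syndrome. Ndufs6 (chromosome 13, 73319838 to 73328542) had 244, 342 and 402 RPKM in CCl4 hearts and 311, 431 and 492 RPKM in Control hearts, with a log2 fold change of -0.32 (SE 0.13, adjusted p = 0.423). Ndufs4 had 146, 212 and 238 RPKM in CCl4 hearts and 201, 255 and 287 RPKM in Control hearts, with a log2 fold change of -0.27 (SE 0.12, adjusted p = 0.485). In both genes all 6 CCl4 hearts lay below the Control median while the ranges overlapped. Their unadjusted p was over 0.05 without CCl4 replicate 3.

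**Figure D3:**
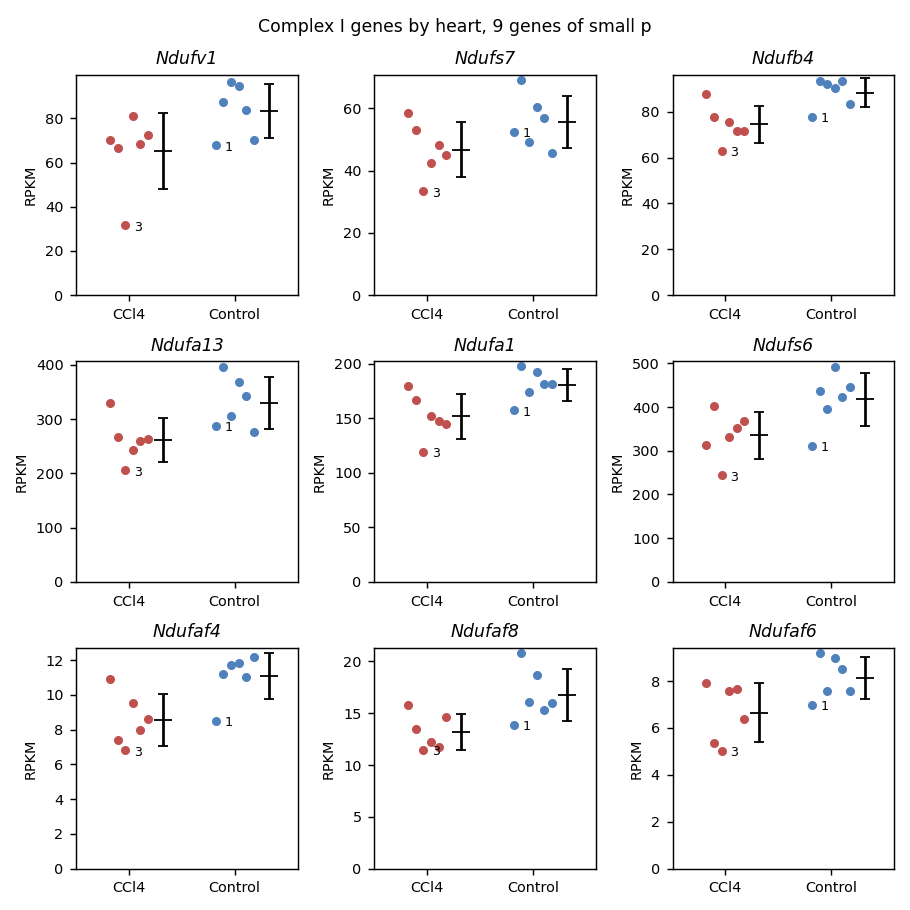
RPKM per heart (points, CCl4 left and red, Control right and blue) for 9 core, accessory and assembly genes of small p, with the mean and SD of 6 hearts (black). The digit 3 marks CCl4 replicate 3 and the digit 1 marks Control replicate 1. In every panel the groups overlap, and CCl4 replicate 3 is the lowest point.

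Levels of the 36 subunits in Control hearts spanned 61.7-fold although the enzyme holds most of them in equal number. Ndufa5, a Q module protein, was the most abundant at 685 ± 108 RPKM in CCl4 hearts and 779 ± 85.9 RPKM in Control hearts (SD, n = 6 each). Its lowest, median and highest values were 515, 684 and 816 RPKM in CCl4 hearts and 625, 782 and 875 RPKM in Control hearts, and the groups overlapped (log2 fold change -0.19, SE 0.12, adjusted p = 0.613). Ndufb9 followed at 542 ± 88.4 RPKM in CCl4 and 629 ± 85.5 RPKM in Control hearts, and Ndufa12 was next at 434 ± 58.8 RPKM in CCl4 and 461 ± 75.3 RPKM in Control hearts. The least abundant was Ndufb2, at 11 ± 1.69 RPKM in CCl4 and 12.6 ± 0.73 RPKM in Control hearts, with a median of 10.7 and a highest value of 13.3 RPKM in CCl4 hearts and a median of 12.5 and a highest value of 13.9 RPKM in Control hearts (log2 fold change -0.19, SE 0.10, adjusted p = 0.518). RPKM divides by gene length. The 5 subunits with the longest summed exons (Ndufs1, Ndufab1, Ndufb2, Ndufb5 and Ndufb7, each of at least 4522 bases) had Control means of 12.6 to 71.4 RPKM. The 18 subunits with longer exons had a median of 85.9 RPKM and the 18 with shorter exons a median of 199 RPKM in Control hearts. The rank correlation of level with exon length over the 36 subunits was -0.245, given as a description of genes that share the same libraries.

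At the other end of the accessory subunits, the difference between groups was near 0 in several. Ndufa6, at the border of the Q and N modules, had 268, 368 and 383 RPKM in CCl4 hearts and 300.2, 367 and 415 RPKM in Control hearts, a log2 fold change of -0.03 (SE 0.11, adjusted p = 0.951). Its medians thus lay side by side, and the low CCl4 value was replicate 3 at 268 RPKM. Ndufa12, a neighbour of Ndufs6 in the N module, had a log2 fold change of -0.08 (SE 0.13) and Ndufa10, which resembles nucleoside kinases, of -0.10 (SE 0.17). Without CCl4 replicate 3 the log2 fold changes were 0.05 for Ndufa6, 0.01 for Ndufa10 and 0.00 for Ndufa12. Among the remaining accessory genes the smallest adjusted p was 0.5 (Ndufc2).

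Assembly factors were less abundant than subunits, with a median Control level of 9.6 RPKM, where that of accessory subunits was 120.1 RPKM and that of core subunits 71.3 RPKM. Ndufaf4, which helps to build the Q module together with Ndufaf3 (chromosome 4, 24898083 to 24905001), had the smallest p of all 46 genes. It had 6.82, 8.28 and 10.9 RPKM as the lowest, median and highest value of CCl4 hearts, against 8.5, 11.5 and 12.2 RPKM in Control hearts. The mean was 8.55 ± 1.5 RPKM in CCl4 hearts and 11.1 ± 1.32 RPKM in Control hearts (SD, n = 6 each), a log2 fold change of -0.34 (SE 0.11, adjusted p = 0.328). The exact two-sided permutation test of this gene gave p = 0.0216, which is likewise unadjusted and from the values by which the gene was picked. All 6 CCl4 hearts lay below the Control median, and the overlap came from Control replicate 1, at 8.5 RPKM, and the 3 CCl4 hearts above it. Without CCl4 replicate 3 the log2 fold change was -0.29.

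Ndufaf8 and Ndufaf5 act as a pair in human cells, where NDUFAF8 stabilises NDUFAF5, an enzyme that hydroxylates an arginine of NDUFS7. Ndufaf8 (chromosome 11, 120098928 to 120100705) had 11.5, 12.9 and 15.8 RPKM in CCl4 hearts and 13.9, 16 and 20.8 RPKM in Control hearts, with a log2 fold change of -0.32 (SE 0.11, adjusted p = 0.346). Ndufaf5 had 6.41, 6.88 and 7.87 RPKM in CCl4 hearts and 7.07, 7.68 and 8.76 RPKM in Control hearts, with a log2 fold change of -0.15 (SE 0.08, adjusted p = 0.54). All 6 CCl4 hearts were below the Control median for Ndufaf8 and 5 for Ndufaf5. Ndufaf6, a factor of Q module assembly, had 5.04, 6.98 and 7.91 RPKM in CCl4 hearts and 7, 8.04 and 9.19 RPKM in Control hearts, with a log2 fold change of -0.27 (SE 0.11, adjusted p = 0.436). Its low CCl4 values were replicates 2 and 3, at 5.37 and 5.04 RPKM.

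The partner of Ndufaf4, Ndufaf3, was the lowest of all members and showed a small difference. It had 1.76, 2.16 and 2.64 RPKM in CCl4 hearts and 1.95, 2.42 and 2.61 RPKM in Control hearts, a log2 fold change of -0.08 (SE 0.09, adjusted p = 0.833). Ndufaf2, a relative of Ndufa12 that takes its place during assembly, was the most abundant factor, with 70.3, 80.5 and 88.6 RPKM in CCl4 hearts and 70.8, 85.3 and 96 RPKM in Control hearts (log2 fold change -0.05, SE 0.10, adjusted p = 0.897). Its exons overlap B230220B15Rik on the other strand by 1955 bases, so part of its reads may belong to that gene. Ndufaf7, a protein arginine methyltransferase, was at 4.01 ± 0.529 RPKM in CCl4 and 4.55 ± 0.472 RPKM in Control hearts. Ndufaf1, of the membrane arm assembly complex, was at 9.72 ± 1.8 RPKM in CCl4 and 11.5 ± 1.9 RPKM in Control hearts (SD, n = 6 each). In all, 19 of the 46 genes have exons that overlap another gene, and the strand setting of the counting is not given in the sources used here.

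Ndufa4 and Ndufa4l2 are related in sequence and differed in their values across hearts. Ndufa4 had 82.4, 118 and 139.7 RPKM in CCl4 hearts and 124, 139 and 157 RPKM in Control hearts, with a log2 fold change of -0.27 (SE 0.12, adjusted p = 0.435). In 5 CCl4 hearts it lay below the Control median, and CCl4 replicate 3 was the lowest. Ndufa4l2, a gene known to be induced by low oxygen, had 5.75, 8.19 and 13.7 RPKM in CCl4 hearts and 6.5, 8.78 and 9.86 RPKM in Control hearts, with a log2 fold change of -0.01 (SE 0.17, adjusted p = 0.992). Its highest value was in CCl4 replicate 3, the heart in which most members were lowest, and without that heart its log2 fold change was -0.14.

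The core subunits encoded by mitochondrial DNA were higher on average in CCl4 hearts. All 7 mt-Nd genes had a log2 fold change above 0 as deposited, with a median of 0.19, and mt-Nd1 alone was below 0 under TPM scaling, quantile normalization or array weights and without CCl4 replicate 1, CCl4 replicate 2 or Control replicate 4. At an unadjusted p under 0.05 there were 2, both higher, and none passed the adjusted p. With array weights mt-Nd4l (adjusted p = 0.0126) and mt-Nd5 (adjusted p = 0.0475) passed it, both higher in CCl4 hearts. mt-Nd4l, a small membrane subunit, had 36229, 46776 and 53242 RPKM in CCl4 hearts and 27021, 32778 and 43125 RPKM in Control hearts, with a log2 fold change of 0.44 (SE 0.12, adjusted p = 0.264), and of 0.11 with quantile normalization. It overlaps mt-Nd4 on the same strand. mt-Nd5, another proton-pumping subunit, had 17702, 22530 and 26763 RPKM in CCl4 hearts and 15805, 18034 and 21681 RPKM in Control hearts, with a log2 fold change of 0.29 (SE 0.11, adjusted p = 0.376). For mt-Nd4 the log2 fold change was 0.19 (SE 0.10, adjusted p = 0.52) and for mt-Nd2 it was 0.20 (SE 0.11, adjusted p = 0.56). Mitochondrial genes took 36.6 ± 4.67% of the reads in CCl4 hearts and 32.4 ± 2.96% in Control hearts (SD, n = 6 each). RPKM is scaled by the reads of the library, so a larger share of reads for some genes leaves a smaller share for the rest. By heart the mitochondrial share was largest in CCl4 replicates 1 and 2, at 40.5% and 43.8%, and it was 34.1% in CCl4 replicate 3. The part of this share in the lower nuclear genes was not tested, apart from the scaling that omitted mitochondrial RNA.

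Summed over genes, the mitochondrial subunits stood at 173466 ± 24706 RPKM in CCl4 hearts and 147454 ± 16559 RPKM in Control hearts, and the 36 nuclear subunits at 5535 ± 763 RPKM in CCl4 hearts and 6338 ± 719 RPKM in Control hearts (SD, n = 6 each). The log2 ratio of the mitochondrial sum to the sum of the 7 nuclear core subunits ran from 7.64 to 8.56 in CCl4 hearts, with a mean of 8.02 ± 0.33, and from 7.19 to 8.0 in Control hearts, with a mean of 7.55 ± 0.316. The ranges overlapped. The ratio was highest in CCl4 replicate 3 at 8.56, where the median mt-Nd gene was at 106% of its Control mean while the nuclear core was at 60%. CCl4 replicates 1 and 2 had the ratios 8.07 and 8.17 in another way, with mt-Nd genes at 134% and 138% and the nuclear core at 96.7% and 89.1% of the Control mean. Among Control hearts, replicate 6 had the highest ratio at 8.0.

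**Figure D4:**
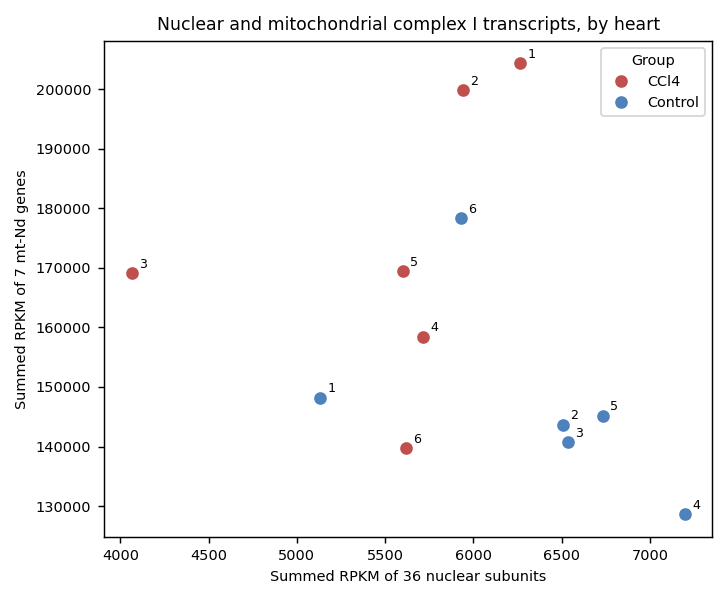
Summed RPKM of the 7 mt-Nd genes (vertical axis, not starting at 0) against the summed RPKM of 36 nuclear subunits (horizontal axis, not starting at 0) in each heart, CCl4 in red and Control in blue, with replicate numbers. CCl4 replicate 3 lies far to the left at 4064 RPKM of nuclear subunits, and CCl4 replicates 1 and 2 lie at the top.

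Other genes of complex I assembly and of complex II, which feeds the same ubiquinone pool from succinate, give a frame for these values. Of 10 further assembly factors tested, 9 had a log2 fold change below 0 (6 under the scaling that omitted mitochondrial RNA), with a median of -0.103 (-0.013 under that scaling), and 2 had an unadjusted p under 0.05. Of the 10, 7 were below 0 without CCl4 replicate 3, with a median of -0.0851. Ecsit, which joins Ndufaf1 in the membrane arm assembly complex, had 10.5, 12.5 and 16.4 RPKM in CCl4 hearts and 14.8, 16.3 and 19.1 RPKM in Control hearts, with a log2 fold change of -0.38 (SE 0.11, adjusted p = 0.268). Only CCl4 replicate 1 reached the Control range. Foxred1, a factor of later assembly, was at 5.52 ± 0.728 RPKM in CCl4 and 6.6 ± 0.648 RPKM in Control hearts (SD, n = 6 each; log2 fold change -0.22, SE 0.09, adjusted p = 0.425). Tmem186 and Tmem126b, of the same membrane arm complex as Ecsit, had log2 fold changes of -0.14 (SE 0.07) and -0.01 (SE 0.10). Atp5sl, a distal arm factor, was at -0.16 (SE 0.10), and Lyrm2 was the factor above 0 at 0.10 (SE 0.12).

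Of 8 complex II genes, 7 were below 0 (4 under median-of-ratios scaling, quantile normalization or the scaling that omitted mitochondrial RNA), with a median of -0.0563. Their median was 0.0077 under the scaling that omitted mitochondrial RNA, and without CCl4 replicate 3 the count was 5 of 8 and the median -0.0334. Sdhc, a membrane anchor, had 45.3, 56.2 and 60.8 RPKM in CCl4 hearts and 51.2, 69.9 and 74 RPKM in Control hearts, with a log2 fold change of -0.30 (SE 0.11, adjusted p = 0.368). Sdhb, the iron-sulfur subunit, had a log2 fold change of -0.20 (SE 0.12, adjusted p = 0.61) and Sdha, the flavoprotein, of -0.24 (SE 0.19, adjusted p = 0.708). The assembly factor Sdhaf3 was at -0.05 (SE 0.05, adjusted p = 0.804). The structural subunits of complex II thus had sizes of difference within the range of the complex I subunits, without passing the test.

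Marker lists of the cell types of the heart moved beside these genes. Cardiomyocyte markers were lower in 8 of 10 (7 under median-of-ratios scaling, array weights or the scaling that omitted mitochondrial RNA, 10 under TPM scaling), with a median log2 fold change of -0.149, and summed to 19709 to 29963 RPKM in CCl4 hearts and 28135 to 35239 RPKM in Control hearts. Their median was -0.0594 under the scaling that omitted mitochondrial RNA and -0.0647 with array weights, and without CCl4 replicate 3 it was -0.0707, with 7 of 10 lower. All 8 endothelial markers had a log2 fold change below 0 (7 under the scaling that omitted mitochondrial RNA, with array weights or without Control replicate 1). They summed to 233 to 295 RPKM in CCl4 hearts and 306 to 389 RPKM in Control hearts. All 8 fibroblast markers were above 0 and summed to 104 to 942 RPKM in CCl4 hearts and 96.2 to 264 RPKM in Control hearts. Smooth muscle markers were below 0 in 6 of 6 (4 with a score of atrial markers as a covariate, 5 without CCl4 replicate 1 or Control replicate 5). They summed to 198 to 283 RPKM in CCl4 hearts and 228 to 381 RPKM in Control hearts. Immune markers were above 0 in 5 of 5 tested (4 without CCl4 replicate 3) and summed to 5.92 to 32.4 RPKM in CCl4 hearts and 7.71 to 9.55 RPKM in Control hearts, with Cd3e, Cd79a and S100a8 under 0.2 RPKM on average in both groups. Red cell genes were above 0 in 5 of 5 and summed to 157 to 244 RPKM in CCl4 hearts and 116 to 235 RPKM in Control hearts. Atrial markers were below 0 in 4 of 5 tested, with a median log2 fold change of -1.38 and a smallest adjusted p of 0.547. The exception was Nppa, at 0.58 (SE 0.82). Their sums, 835 to 11733 RPKM in CCl4 hearts and 607 to 15055 RPKM in Control hearts, were mostly Nppa in every heart. Adipocyte markers were below 0 in 2 of 2 tested and summed to 0.361 to 22.7 RPKM in CCl4 hearts and 1.18 to 16.9 RPKM in Control hearts. The part of these lists in the complex I difference was not tested, apart from an atrial score used as a covariate. With it 14 of the 46 members and 1592 of all 14087 genes tested had an unadjusted p under 0.05. An adjusted p under 0.05 was reached by 0 members and 17 of all genes.

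The promoters of the members were read from RefSeq (GRCm38.p6), as 250 bases before to 50 bases after each annotated start, for the 40 members that matched by symbol. They were searched on both strands for short motifs of factors known to control mitochondrial genes. The motif of nuclear respiratory factor NRF1, spelled GCGC, any base, TGCGC, was found in 9 of 40 members (22.5%), against 11.5% of 9058 tested genes and 5.19% of all 27025 genes with such a window. The letters AAGATGGC, a core of the YY1 motif, were found in 8 of 40 (20%), against 5.41% of tested genes and 3.19% of all genes. The ETS letters CCGGAAG were in 6 of 40 (15%), against 20% and 9.93%. The short ERR letters AAGGTCA were in 3 of 40 (7.5%), against 3.86% and 5.38%, and the longer form TCAAGGTCA, which holds the short form within it, was in 0 of 40, against 0.342% and 0.466%. A match says only that these letters are in the window.

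Shown here are the NRF1 matches in members with an unadjusted p under 0.05. The motif is in capitals, with 10 bases or fewer on each side, 5′ to 3′ on the strand of the gene. The YY1 matches follow below. Among the same members, Ndufb4 also holds the short ERR letters and Ndufaf8 the ETS letters, which are not shown. Ndufaf4 holds the NRF1 letters at chr4:24897960-24897989 (plus strand) and Ndufb4 holds them 3 times, on its opposite strand, at chr16:37654540-37654569, chr16:37654428-37654457 and chr16:37654371-37654400 (minus strand). Ndufs6 holds them at chr13:73328479-73328508 (minus strand).
Ndufaf4: ccagatgtctGCGCATGCGCctgtgcggaa
Ndufb4, far site: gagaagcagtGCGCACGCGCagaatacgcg
Ndufb4, middle site: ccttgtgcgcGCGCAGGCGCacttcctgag
Ndufb4, near site: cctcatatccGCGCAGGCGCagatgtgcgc
Ndufs6: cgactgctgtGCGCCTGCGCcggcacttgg
In Ndufaf4 the letters read the same on both strands. The site lies 113 bases before the annotated start in Ndufaf4 and 16 bases before it in Ndufs6.

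The YY1 letters lay downstream of the start in all 8 members that hold them (Ndufa3, Ndufa9, Ndufaf8, Ndufb8, Ndufc1, Ndufs4, Ndufs6 and Ndufs7), 10 to 38 bases after it and on the strand of the gene. They hold the letters ATG within them. Those of Ndufs6 (chr13:73328433-73328459, minus strand), Ndufs4 (chr13:114388045-114388069, minus strand) and Ndufaf8 (chr11:120098934-120098961, plus strand) are shown, as the 3 that had an unadjusted p under 0.05.
Ndufs6, YY1 letters: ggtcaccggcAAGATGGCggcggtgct
Ndufs4: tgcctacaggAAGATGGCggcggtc
Ndufaf8: ggcagggcccAAGATGGCggcgccctcg
The median log2 fold change was -0.261 in the 8 members with these letters and -0.19 in the other 32, and it was -0.192 in the 9 members with the NRF1 letters and -0.195 in the other 31. These medians are given as a description, since the genes share the same hearts.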

How the data were processed

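RNA of 12 mouse hearts was extracted with TRIzol and made into libraries with a stranded mRNA kit, per the labels' protocols. Per the submitters' processing notes, the tools were Trimmomatic 0.36 and featureCounts (Subread 1.5.1), with GRCm38. Aligner, annotation and strand setting are not given in the sources used here. What the authors deposited are RPKM values, 1 column per heart, for 31722 symbols. RPKM is not a count, so no count model was the main test.

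Groups came from the sample titles. The 14087 genes that reached 0.5 RPKM in 6 or more columns were fitted with limma 3.58.1 in R 4.3.3 (lmFit and eBayes with a trend) on log2(RPKM + 1), over 12 hearts and with no covariate, and p was adjusted by Benjamini-Hochberg over all of them, with a threshold of 0.05. Fold changes on this scale understate changes of low genes. P-values weigh the difference between groups against the spread between these hearts. Exact permutation tests of single genes ran over 924 splits. The genes described, the lists and the tests were chosen with earlier results of these data known. Values by heart are given for the 4 members of smallest p in each class, the highest and the lowest of each class and the Ndufa4 pair, and up to 4 genes of smallest p are named from each pathway list. Ndufs4, Ndufa6, Ndufa10, Tmem126b and Lyrm2 were added after their values were seen. For 1 member the values are not reported here, though it is part of the counts, sums and medians of its classes.

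Relative depth was recovered by multiplying RPKM by exon lengths of GENCODE M21, which matched 30201 symbols (95.2%). For values of 30 steps or fewer, 68.9% to 75.2% were whole to within 0.05 step (10% by chance), and most were even, so the depths are approximate and a step can be less than a fragment. Counting error thus weighs most for Ndufaf3, the lowest member. Coordinates are 1-based on GRCm38. The fit was tested on simulated data. Alternatives covered the pseudocount, filter, scaling, weights, covariates, replicate block, a rank-sum test and each heart left out. Voom on the recovered steps was chosen after seeing the data. Of 11 further assembly factors listed, Coa1 was not analysed here, and 2 were found under older symbols in RefSeq (Tmem261 for Dmac1 and Atp5sl for Dmac2). Tables were made with pandas 2.3.3 and numpy 2.4.6 and plots with matplotlib 3.10.9 (Python 3.11.15).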

Additional observations from a re-analysis of the deposited data

Results flagged for a closer look

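In groups of 6 hearts, a value was marked where its gap to the next heart, divided by the range of the group, was above Dixon's 95% critical value. Of 104 groups examined (45 complex I genes and 7 mt-Nd genes in each group), 17 were marked, where chance marks about 1 in 20, and 14 of them concern 1 library. CCl4 replicate 3 lay far below the other CCl4 hearts in 2 core genes of the Q module, with 31.5 RPKM for Ndufs3 (others 44.2 to 48.8) and 46.9 RPKM for Ndufs8 (others 65.5 to 71). It did so in 2 core genes of the N module, with 31.5 RPKM for Ndufv1 (others 66.6 to 81.3) and 131 RPKM for Ndufv2 (others 181 to 202). In accessory genes of the matrix arm it had 321 RPKM for Ndufa12 (others 426 to 485), 146 RPKM for Ndufs4 (others 208 to 238) and 268 RPKM for Ndufa6 (others 359 to 383). In the distal membrane arm it had 376 RPKM for Ndufb9 (others 542 to 637), 239 RPKM for Ndufb10 (others 340.2 to 393), 89.9 RPKM for Ndufb8 (others 130.1 to 142) and 42.1 RPKM for Ndufb11 (others 59.6 to 65.8). In the same arm it had 18.4 RPKM for Ndufb5 (others 24 to 26.8) and 14.5 RPKM for the acyl carrier protein Ndufab1 (others 19.5 to 21.6). Of the assembly factors, Ndufaf1 was marked at 6.23 RPKM (others 9.69 to 11). These values come from the same heart and are not independent of each other.

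Control replicate 1 lay far below the other Control hearts for Ndufaf4, at 8.5 RPKM (others 11 to 12.2), and for Ndufa3, at 15.3 RPKM (others 20.1 to 22.6). Control replicate 6 lay far above the other Control hearts for mt-Nd6, at 35476 RPKM (others 24658 to 27881).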

How the results depend on the processing

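All 46 members stayed below 0 with another pseudocount, filter, robust fit, TPM scaling, array weights, the atrial or Xist covariate and the replicate block, and 42 to 46 did under every alternative run. The count of members at an unadjusted p under 0.05, 9 as reported, was 21 with TPM scaling, 30 with array weights, 14 with the atrial score, 0 with median-of-ratios scaling, 2 with quantile normalization and 1 under a scaling that omitted mitochondrial RNA. Over all genes tested this count was 1435 as reported, 1621 with TPM scaling, 4527 with array weights and 1592 with the atrial score. It was 1564 with median-of-ratios scaling, 1588 with quantile normalization and 1234 under the scaling that omitted mitochondrial RNA. The count of members ran from 4 (without Control replicate 2 or 4) to 21 (without Control replicate 1) with 1 heart left out. It was 5 without CCl4 replicate 3 or Control replicate 5 and 14 without CCl4 replicate 1. Over all genes the count was 1084 without Control replicate 2, 983 without Control replicate 4 and 1908 without Control replicate 1. It was 2158 without CCl4 replicate 3, 1142 without Control replicate 5 and 1760 without CCl4 replicate 1. With array weights 16 members passed the adjusted p, and 2249 of all genes did. The count over all genes was 17 with the atrial score and ran from 0 to 47 with 1 heart left out (47 without CCl4 replicate 1, 31 without Control replicate 1, 2 without CCl4 replicate 6, 1 without CCl4 replicate 4), with no member among them. Voom gave 0 genes and 1368 with a raw p under 0.05. Genes at that p were lower in 84.3% as deposited, 50.6% with median-of-ratios scaling, 51.8% with quantile normalization and 47.9% without mitochondrial RNA, where the median of all genes was 0.0151. Ndufaf2 was at 0.01, 0.03 and 0.04 and Ndufa4l2 at 0.05, 0.05 and 0.08 with these 3 scalings. Ndufa4l2 was also at 0.01 with voom and ran from -0.14 (without CCl4 replicate 3) to 0.08 with 1 heart left out, with 0.00 or more without CCl4 replicate 1, 2 or 4 or Control replicate 2, 4 or 6. The cause was not tested. Of the other values, 831 for single genes and the median of all genes kept their direction and their side of the threshold, and 16 for single genes passed it with array weights. Counting error bears mainly on Ndufaf3, at 98 to 294 steps in a library. Whether replicate numbers pair the hearts is not known. Correlations of same-numbered deviations ran from -0.474 to 0.232, with 2 of 6 numbers matching their own best, and such correlations cannot exclude matched hearts. Xist was under 1 RPKM in replicates 2 and 5 of each group. With the replicate number as a block 4 members and 1060 of all genes had an unadjusted p under 0.05, and 0 passed.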
